A study of Mus musculus with 15 samples.

Results

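The Apoe and Apoc cluster is a run of small apolipoprotein genes on mouse chromosome 7, described here with the genes on either side of it. Its 6 members are Apoe, Apoc1, Apoc2, Apoc4, Tomm40 and Clptm1, taken by symbol from the 55228 genes listed in every library. The set was chosen by the FPKM of Apoe and Apoc1, which were higher in Smarcb1-knockdown cells than in control cells at all 3 times, and the other 4 members are their neighbours. The values of Apoe and Apoc1 in those comparisons are therefore given as a description without a test, and the question put to the data is whether the neighbouring genes moved too.

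RNA was sequenced in 15 libraries of 81K1, a mouse embryonic stem cell (mESC) line derived from OG2 through a single clone, K1. All cells of all groups carried an anti-Smarcb1 shRNA cassette at Rosa26, controlled by a doxycycline-dependent promoter, and were grown with LIF and serum on gelatine. The kd groups received doxycycline at 1 µg per ml daily and were collected after 48 h, 72 h or 240 h, and the untreated ctrl groups at 48 h or 240 h, with 3 libraries each. The 72 h kd libraries have no control of their own and were compared with the 48 h ctrl libraries, so the 48 h and 72 h comparisons share their controls. A doxycycline-treated line without the shRNA was not analysed here, so doxycycline and knockdown cannot be told apart.

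Apolipoprotein E is a lipid-binding protein of lipoprotein particles and the main ligand through which remnant particles are taken up by receptors of the LDL receptor family. It is made in liver, macrophages and astrocytes. Apolipoproteins C1, C2 and C4 are smaller proteins that exchange between particles. C2 is the cofactor that activates lipoprotein lipase, whereas C1 slows lipase action and receptor uptake. In liver and in macrophages, enhancers lying between and downstream of these genes are known to act on several of them, and the nuclear receptor LXR acts through some of these enhancers. Tomm40 encodes the pore of the translocase of the outer mitochondrial membrane (TOM), and Clptm1 a transmembrane protein with a part in the trafficking of GABA-A receptors.

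In the build of the deposited tables (mm10), the 6 genes lie on the minus strand of chromosome 7. In the direction of transcription their order is Tomm40 (chr7:19701313-19715438), Apoe (chr7:19696109-19699188), Apoc1 (chr7:19689481-19692660), Apoc4 (chr7:19678083-19681479), Apoc2 (chr7:19671579-19677941) and Clptm1 (chr7:19631571-19665033). The start of Apoc1 lies 6.53 kb downstream of the Apoe start, that of Apoc4 17.7 kb, that of Apoc2 21.2 kb and that of Clptm1 34.2 kb, while Tomm40 starts at -16.2 kb, the minus sign meaning upstream. The GENCODE identifiers are ENSMUSG00000002985 for Apoe, ENSMUSG00000040564 for Apoc1, ENSMUSG00000074336 for Apoc4, ENSMUSG00000002992 for Apoc2, ENSMUSG00000002984 for Tomm40 and ENSMUSG00000002981 for Clptm1. Apoc2 and Apoc4 both overlap the readthrough gene model Gm44805, and Tomm40 overlaps the antisense gene Gm20512. Reads were counted over whole gene spans. Whether strand was used is not given in the sources used here, so values of overlapping genes may share reads.

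Apoe and Tomm40 stand next to each other on the same strand and differed in their behaviour, so their promoters are shown, from 250 bases before to 50 bases after the RefSeq start (GRCm38.p6). Capitals mark matches to the motifs searched on both strands, and Apoe held none. Position numbers count from the start, with -1 the base before it.
Apoe, chr7:19699139-19699438, minus strand: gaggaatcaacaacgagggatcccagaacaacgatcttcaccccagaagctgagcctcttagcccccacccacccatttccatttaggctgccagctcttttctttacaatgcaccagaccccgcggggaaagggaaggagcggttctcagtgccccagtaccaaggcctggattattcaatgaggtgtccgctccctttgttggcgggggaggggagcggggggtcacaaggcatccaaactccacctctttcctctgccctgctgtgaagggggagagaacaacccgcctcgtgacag
Tomm40, chr7:19715380-19715679, minus strand: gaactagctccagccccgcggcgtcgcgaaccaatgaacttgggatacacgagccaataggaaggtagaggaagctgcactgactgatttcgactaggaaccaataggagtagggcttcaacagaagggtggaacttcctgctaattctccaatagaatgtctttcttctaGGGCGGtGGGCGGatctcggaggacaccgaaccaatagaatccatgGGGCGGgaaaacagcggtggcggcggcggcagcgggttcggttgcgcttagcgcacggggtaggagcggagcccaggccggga
The GC-box core GGGCGG was found at positions -79, -72 and -33 of Tomm40 and not in the Apoe window. It is present in 35.7% of the 32851 promoters of this length in the table. The TATA box TATAAA (13.6% of promoters), the AP-1 site TGANTCA (7.81%) and the LXR-type repeat, AGGTCA spaced by 4 bases from a further AGGTCA (0.0152%), were found in neither window. The GC content of both windows was alike, at 57.7% for Apoe and 58% for Tomm40. A match or its absence describes only these letters in this window. Apoc1 is not in the promoter table.

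The libraries held 11074998 to 14515300 reads, totals that were inferred from the FPKM values. Smarcb1, the target of the shRNA, lay between 3.31 and 3.93 FPKM (here reads scaled to the whole gene span and to library size) in the 6 ctrl libraries and between 0.503 and 0.820 in the 9 kd libraries. The stem cell genes Pou5f1 and Sox2 had group means of 244 to 311 FPKM and 251 to 357 FPKM. Replicate 2 of the 48 h kd group stood apart, with 2.53% of its reads on mitochondrial genes against 0.507% to 1.95% in the other libraries. Calls below were made with limma over all tested genes and required an adjusted p under 0.05 together with an absolute log2 change above 0.58. Values without that library are given beside the 48 h differences of the members. Of the other genes named below as called at 48 h, Sqle lost its call without that library, and Bcam was at -0.76, Apoa2 at -0.68, Pltp at 0.73, Cd68 at 1.10, Sox1 at 1.30, Aldoc at -0.73, Tfap2c at -0.61, Klf4 at -0.85 and Idi1 at -0.68, all still called.

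Apoe was by far the most abundant member, and it was higher in every kd library than in any ctrl library. It measured 120, 123 and 130 FPKM in the 48 h ctrl libraries and 352, 274 and 329 FPKM in the 48 h kd libraries. The 72 h kd libraries held 616, 628 and 631 FPKM. At 240 h the ctrl libraries measured 112, 121 and 128 FPKM and the kd libraries 216, 226 and 222 FPKM. The 5 groups thus fell into 4 levels, with both ctrl groups overlapping at the bottom, then 240 h kd, 48 h kd and, highest, 72 h kd. Between 4204 and 25815 reads stood behind each value, and Apoe took 0.0344% to 0.0399% of all reads in ctrl libraries and 0.190% to 0.194% at 72 h. The mean of the kd group was 2.56 times that of its control at 48 h, 5.03 times at 72 h and 1.85 times at 240 h. On the log2(FPKM + 0.1) scale these differences were 1.35 (SE 0.10), 2.33 (SE 0.035) and 0.89 (SE 0.057), with n = 3 libraries a group. Without replicate 2 of the 48 h kd group, the lowest of its group, the 48 h difference was 1.45.

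Apoc1 ran in parallel with Apoe at a far lower level. It measured 1.19, 1.65 and 1.39 FPKM in the 48 h ctrl libraries, 3.39, 3.03 and 3.78 FPKM in the 48 h kd libraries, and 6.93, 6.64 and 6.89 FPKM in the 72 h kd libraries. At 240 h it was 1.09, 1.38 and 1.4 FPKM in ctrl and 2.29, 2.51 and 2.54 FPKM in kd libraries. No kd library overlapped a ctrl library, and the order of the groups was that seen for Apoe. The kd mean was 2.41 times the control mean at 48 h, 4.84 times at 72 h and 1.90 times at 240 h. The log2 differences were 1.22 (SE 0.13), 2.21 (SE 0.11) and 0.88 (SE 0.10). Without replicate 2 of the 48 h kd group the first was 1.30. These values rest on 43 to 291 reads a library.

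**Figure D1:**
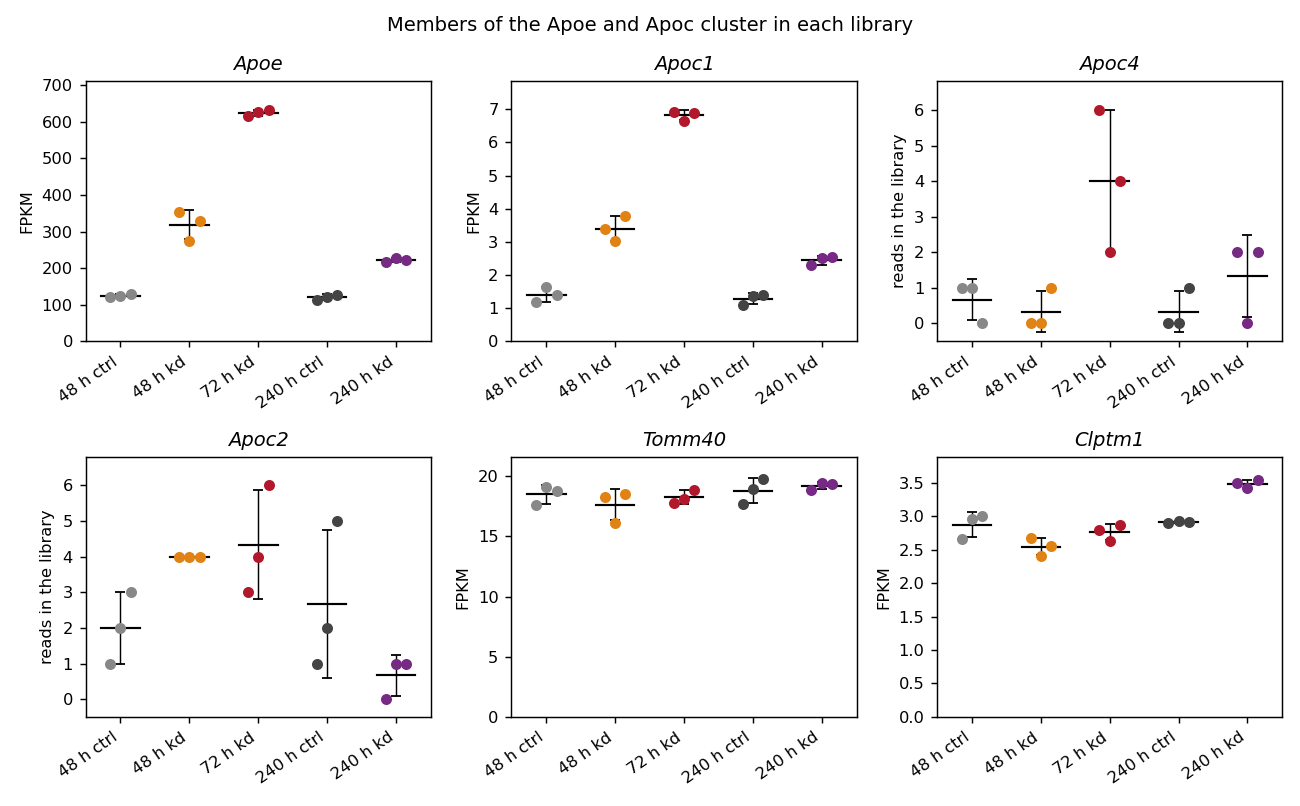
Values of the 6 members in each of the 15 libraries (points), with the mean and SD of the 3 libraries of each group (bars), in FPKM for Apoe, Apoc1, Tomm40 and Clptm1 and in reads for Apoc4 and Apoc2. Apoe and Apoc1 share 1 profile with a peak at 72 h kd, Tomm40 lies between 16.1 and 19.7 FPKM throughout, and Apoc2 and Apoc4 have at most 6 reads in any library.

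The ratio of Apoe to Apoc1 varied far less than either gene. Both were chosen for being higher in the same kd groups, and Tomm40 was not. The ratios below use those same values and are a description without a test. Over the 15 libraries the ratio of their FPKM per gene span had a median of 91.1 and ranged from 74.8 to 104, a spread of 1.39-fold, against 5.66-fold for Apoe and 6.37-fold for Apoc1 themselves. The group means of the ratio were 89.7 ± 13.4 (SD, n = 3) at 48 h ctrl, 94.0 ± 8.90 at 48 h kd, 91.7 ± 2.79 at 72 h kd, 93.8 ± 7.94 at 240 h ctrl and 90.7 ± 3.48 at 240 h kd. All 5 groups overlapped, and their means differed by less than the SD within the 48 h ctrl group. Set per exonic length, which is 2138 bases for Apoe and 744 bases for Apoc1, the median ratio was 30.7. By contrast the ratio of Apoe to Tomm40 per exonic length was 3.10 ± 0.119 at 48 h ctrl, 8.30 ± 0.539 at 48 h kd, 15.8 ± 0.331 at 72 h kd, 2.94 ± 0.0381 at 240 h ctrl and 5.32 ± 0.0489 at 240 h kd.

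**Figure D2:**
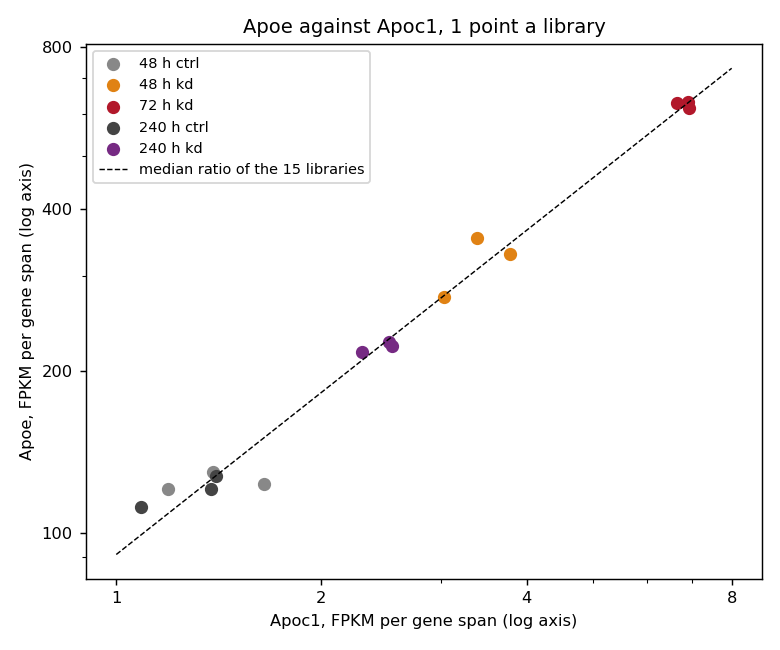
Apoe against Apoc1 in FPKM per gene span, both axes logarithmic, 1 point for each of the 15 libraries, coloured by group. The points follow the dashed line of the median ratio of 91.1 from the ctrl libraries at the lower left to the 72 h kd libraries at the upper right.

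The kd groups were also set against each other. These differences come from the kd libraries by which Apoe and Apoc1 were chosen, so for these genes they too are a description without a test. Apoe was higher at 72 h kd than at 48 h kd by 0.98 on the log2 scale (SE 0.098), and Apoc1 by 0.99 (SE 0.082). Without replicate 2 of the 48 h kd group the differences were 0.88 and 0.91. From 72 h kd to 240 h kd, Apoe was lower by 1.49 (-1.49, SE 0.025) and Apoc1 by 1.44 (-1.44, SE 0.047). In both comparisons the 3 libraries of a group did not overlap those of the other. Over all genes, 7.45% of 11500 tested were called between 48 h kd and 72 h kd (4.17% higher and 3.29% lower) and 15.7% of 11463 between 72 h kd and 240 h kd (6.44% higher and 9.29% lower).

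The ctrl values were also used for the choice, and their difference is a description too. Between 240 h ctrl and 48 h ctrl it was -0.05 for Apoe (SE 0.062) and -0.12 for Apoc1 (SE 0.14), with overlapping libraries, where 0.475% of 11359 genes passed, 0.352% higher and 0.123% lower. The difference between the knockdown effects at 240 h and 48 h, which combines the values used for the choice, was -0.46 for Apoe (SE 0.12) and -0.34 for Apoc1 (SE 0.18) and is given without a test. Over all 11412 genes, 5.82% were called for this difference (2.72% higher and 3.1% lower).

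Tomm40, the gene immediately upstream, did not follow. It measured 17.6, 19.1 and 18.7 FPKM at 48 h ctrl, 18.2, 16.1 and 18.5 at 48 h kd, 17.7, 18.1 and 18.9 at 72 h kd, 17.7, 19.0 and 19.7 at 240 h ctrl and 18.9, 19.4 and 19.3 at 240 h kd. All groups overlapped except that the 240 h kd libraries lay above the 48 h kd libraries. The log2 difference from control was -0.07 at 48 h (interval -0.24 to 0.10, adjusted p = 0.529), -0.02 at 72 h (-0.13 to 0.09, adjusted p = 0.727) and 0.03 at 240 h (-0.09 to 0.15, adjusted p = 0.643). Each interval leaves out a change of the size that a call needs. At 48 h 3.99% of 11420 tested genes passed (1.99% higher and 2.01% lower), at 72 h 13.5% of 11440 (8.23% and 5.3%) and at 240 h 8.91% of 11401 (4.79% and 4.12%). Without replicate 2 of the 48 h kd group, the lowest Tomm40 library, the 48 h difference was -0.008. Each library held 2673 to 3977 Tomm40 reads.

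Clptm1, beyond the Apoc genes, moved little and differently. Its levels were 2.66, 2.96 and 3.01 FPKM at 48 h ctrl, 2.67, 2.41 and 2.55 at 48 h kd, 2.79, 2.63 and 2.87 at 72 h kd, 2.9, 2.93 and 2.92 at 240 h ctrl and 3.50, 3.42 and 3.54 at 240 h kd. Only the 240 h kd libraries lay apart from all others, and they lay above them. The log2 difference from control was -0.17 at 48 h (adjusted p = 0.137, and -0.13 without replicate 2 of the 48 h kd group), -0.05 at 72 h (adjusted p = 0.487) and 0.25 at 240 h (interval 0.18 to 0.32, adjusted p = 0.00228), the last below the size for a call. The effect at 240 h exceeded that at 48 h by 0.42 (interval 0.26 to 0.58, adjusted p = 0.00339), the opposite direction to Apoe. Between 72 h kd and 240 h kd, where Apoe was lower, Clptm1 was 0.32 higher (adjusted p = 0.00113), again below the size for a call.

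Apoc2 and Apoc4 were barely transcribed and stayed below the 0.5 FPKM minimum in every comparison. Apoc2, the lipase cofactor, had 1, 2 and 3 reads in the 48 h ctrl libraries, 4 in each 48 h kd library, 3, 4 and 6 at 72 h kd, 1, 2 and 5 at 240 h ctrl and 0, 1 and 1 at 240 h kd. Apoc4 had 1, 1 and 0 reads at 48 h ctrl, 0, 0 and 1 at 48 h kd, 6, 2 and 4 at 72 h kd, 0, 0 and 1 at 240 h ctrl and 2, 0 and 2 at 240 h kd. The 72 h kd libraries held the most Apoc4 reads, 12 in all (95% exact Poisson interval 6.2 to 21.0), against 2 at 48 h ctrl (0.242 to 7.22) and 1 at 48 h kd (0.0253 to 5.57). These intervals cover counting error only. In a fit with no FPKM minimum, Apoc4 at 72 h differed from 48 h ctrl by 0.70 on the log2 scale with an adjusted p of 0.0651. Apoc2 was lower at 240 h kd than at 72 h kd by 0.50 (-0.50, SE 0.099, adjusted p = 0.0179), the direction of Apoe and Apoc1 in that comparison, but below the size for a call. Apoc4 was at -0.56 there (adjusted p = 0.169). Neither gene was called in any of the 7 comparisons. The readthrough model Gm44805, which shares reads with both, had 25 reads at 72 h kd and 6 to 13 in the other groups. At these read numbers, neither a change like that of Apoe nor its absence could be shown for Apoc2 or Apoc4.

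Among the other genes of the neighbourhood, Bcam was called against control at every time, in the direction opposite to Apoe. Within 250 kb of Apoe lie 38 listed genes, and of the 36 other than Apoe and Apoc1, 16 could be tested. In the 48 h comparison 1 of these 16 passed, in the 72 h comparison 3 and in the 240 h comparison 3, against the 3.99%, 13.5% and 8.91% of all tested genes given above. The median log2 change of the 16 was 0.04, 0.20 and 0.13, beside medians over all genes of 0.01, 0.01 and -0.002. The share that passed was thus 6.25%, 18.75% and 18.75%, from 1, 3 and 3 genes.

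Bcam, which encodes a laminin-binding cell adhesion molecule and starts at -71.8 kb from the Apoe start, fell at all 3 times. It measured 8.27, 8.17 and 9.05 FPKM at 48 h ctrl and 4.95, 4.07 and 5.03 at 48 h kd. The 72 h kd libraries held 5.47, 5.12 and 5.44 FPKM. At 240 h it was 8.23, 8.03 and 9.11 FPKM in ctrl and 2.97, 3.14 and 3.19 FPKM in kd libraries. No kd library overlapped a ctrl library. The log2 changes were -0.85 at 48 h (adjusted p = 0.00483), -0.66 at 72 h (adjusted p = 0.000285) and -1.42 at 240 h (adjusted p = 9.81e-05). Its lowest level was thus at 240 h kd, where Apoe was nearer to control than at 48 h or 72 h. Between kd groups Bcam did not run opposite to Apoe. From 48 h kd to 72 h kd it was at 0.19 (adjusted p = 0.144), not called. From 72 h kd to 240 h kd it was called lower, at -0.77 (adjusted p = 8.72e-05), the direction of Apoe there. Bcam overlaps the gene models Gm45114 and Gm26600.

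Against control, the other calls were each made at 1 time. Bcl3, encoding a nuclear partner of NF-kappa-B, rose at 240 h by 0.73 (adjusted p = 0.000178), from 3.80, 4.10 and 4.07 FPKM in ctrl to 6.58, 6.79 and 6.70 in kd libraries. Gm16175, antisense within Bcl3, rose by 0.79 (adjusted p = 0.000183), and the reads of the pair cannot be told apart. At 72 h, Mark4, a kinase of microtubule-associated proteins, rose by 0.60 (adjusted p = 0.000309) and Trappc6a, a subunit of a vesicle tethering complex, by 0.63 (adjusted p = 0.000813). Both stood close to the size threshold, and leaving out replicate 1 of the 48 h ctrl group brought Mark4 to 0.58 and Trappc6a to 0.57, below a call, as leaving out replicate 1 of the 72 h kd group did for Mark4, at 0.56. Both were also called higher at 72 h kd than at 48 h kd, Mark4 by 0.62 (adjusted p = 0.00207) and Trappc6a by 0.58 (adjusted p = 0.00266), the latter lost without replicate 1 or 2 of the 48 h kd group (0.58 and 0.54) or replicate 2 or 3 of the 72 h kd group (both 0.57). From 72 h kd to 240 h kd Trappc6a fell by 1.06 (adjusted p = 0.000169), and Mark4 was at -0.51, below the size for a call (adjusted p = 0.00163). Nectin2, a cell adhesion gene next to Tomm40 and named here after its values were seen, was not called. It measured 2.52, 2.51 and 2.56 FPKM at 48 h ctrl, 2.34, 2.34 and 2.15 at 48 h kd and 3.36, 3.27 and 3.48 at 72 h kd, and at 240 h 2.34, 2.23 and 2.13 in ctrl and 2.74, 2.81 and 2.76 in kd libraries. Its differences from control were -0.15, 0.40 and 0.30 at the 3 times (adjusted p = 0.0858, 0.000322 and 0.00412), with 0.55 from 48 h kd to 72 h kd (adjusted p = 0.0017) and -0.27 from 72 h kd to 240 h kd (adjusted p = 0.000926). Its highest libraries were those of 72 h kd, and at 48 h its kd libraries lay below control. Gm20512, which overlaps Nectin2 and Tomm40, was at -0.06, 0.39 and 0.13 against control (adjusted p = 0.56, 0.00175 and 0.0235), with 0.44 and -0.37 in the comparisons of kd groups (adjusted p = 0.00695 and 0.00135), and was not called. Relb, an NF-kappa-B subunit gene also named after its values were seen, was at 0.11, 0.53 and 0.22 against control (adjusted p = 0.287, 0.000788 and 0.0699), with 0.42 and -0.41 between kd groups (adjusted p = 0.00423 and 0.00406), not called. It was called at 72 h against the 240 h ctrl group (0.63).

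Zfp296, a zinc finger gene of pluripotent cells and the most abundant of the 36, at a mean of 18.9 FPKM, was not called, with differences of 0.16, -0.18 and 0.57 at the 3 times (adjusted p = 0.299, 0.0842 and 0.0129). Without replicate 1 of the 240 h kd group its 240 h difference was 0.70, and without replicate 1 of the 240 h ctrl group 0.59, both past the call.

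**Figure D3:**
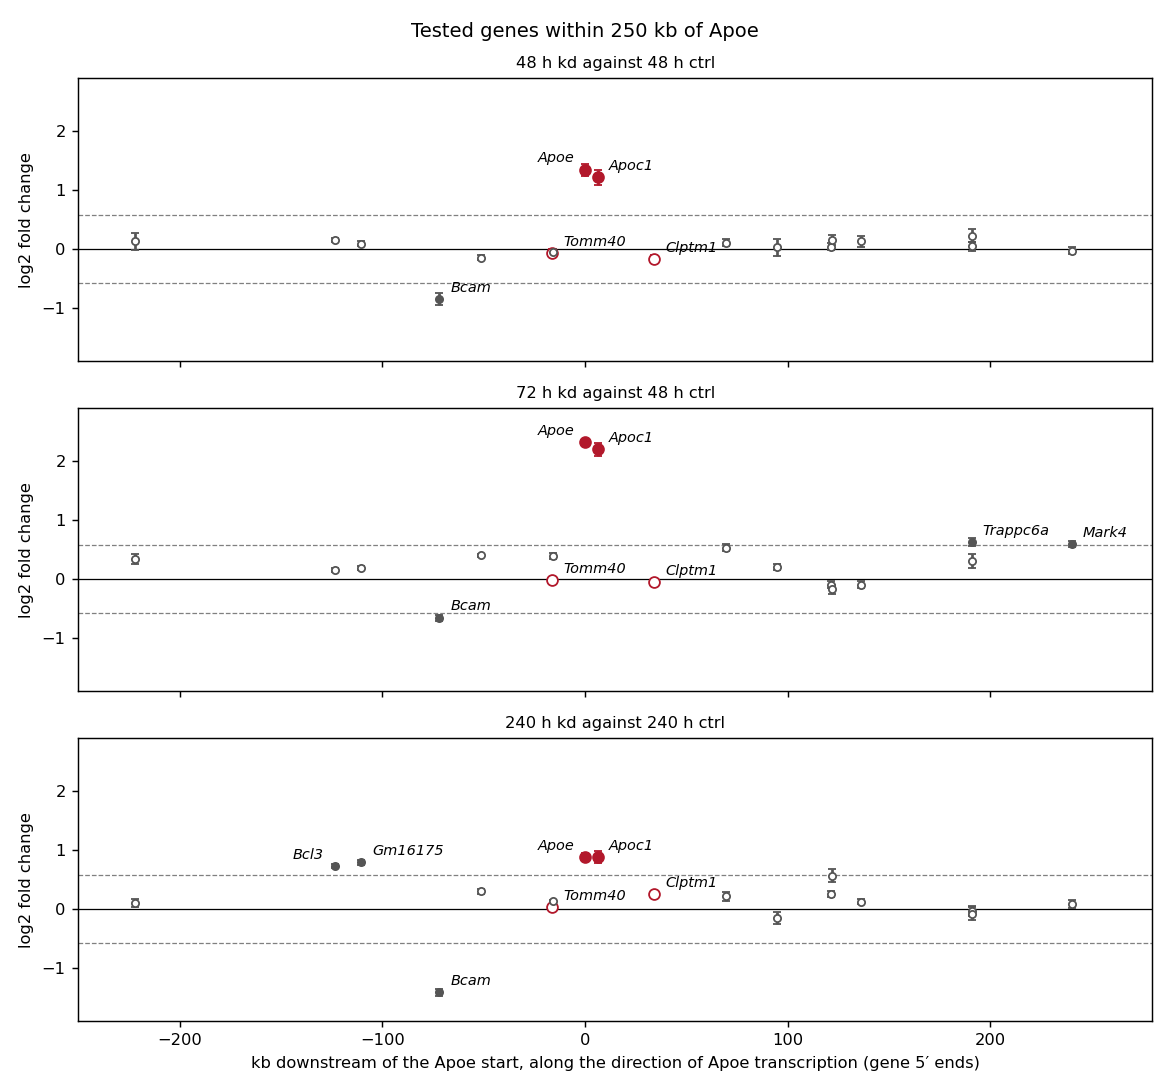
Log2 fold change on the FPKM + 0.1 scale, with its SE, of the tested genes within 250 kb of Apoe in the 3 knockdown comparisons, by distance of the gene start from the Apoe start in the direction of Apoe transcription. Members are red, called genes are filled (Apoe and Apoc1 were chosen for these differences) and dashed lines mark 0.58 in both directions. Apoe and Apoc1 stand alone near 0 kb, with Tomm40 and Clptm1 near no change and Bcam below the lower line at all 3 times.

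The genes whose level most resembled that of Apoe were found by the Pearson correlation of log2(FPKM + 0.1) over the 15 libraries among 8574 genes, leaving out predicted genes and genes overlapping Apoe. Apoc1 ranked at position 2 with r = 0.993, behind Gnpda1 on chromosome 18 (r = 0.994) and ahead of Cxxc5, also on chromosome 18 (0.987), Acat1 on chromosome 9 (0.987) and Pigp on chromosome 16 (0.987). These correlations describe 15 points that fall into 5 groups and share libraries and depth. Apoe and Apoc1 were chosen for being higher in the same kd groups, so the rank of Apoc1 is a description without a test. Ranks are given for some neighbours only. Nectin2 ranked at 1577 (r = 0.69), Bcl3 at 3590 (0.23) and Zfp296 at 4453 (-0.02). Tomm40 ranked at 5086 (-0.21), Clptm1 at 5318 (-0.26) and Bcam at 6318 (-0.50). The ranks of other neighbours, Mark4, Trappc6a and Relb among them, were not taken out, so the neighbour most like Apoe is not known from these. The mean of Gnpda1, for example, went from 4.52 FPKM at 48 h ctrl to 7.02 at 48 h kd and 9.37 at 72 h kd, and was 5.96 FPKM at 240 h kd against 4.48 at 240 h ctrl.

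Few apolipoprotein genes elsewhere in the genome were expressed enough to be tested. Of 17 in the list, 3 could be tested at 48 h and 72 h and 2 at 240 h, of which 1 was called lower each time and none higher, beside 2.01%, 5.3% and 4.12% of all genes lower and 1.99%, 8.23% and 4.79% higher. Apoa2, a main protein of high-density lipoprotein, fell at all 3 times, by 0.72, 1.35 and 1.46 on the log2 scale (adjusted p = 0.00269, 1.35e-05 and 0.0017). Its levels were 7.70, 7.48 and 7.53 FPKM at 48 h ctrl, 4.39, 4.37 and 4.97 at 48 h kd and 2.89, 2.99 and 2.84 at 72 h kd. At 240 h it was 6.79, 6.43 and 7.37 FPKM in ctrl and 1.95, 2.39 and 3.05 FPKM in kd libraries, again without overlap. Clu, a secreted chaperone found on lipoproteins, was at -0.37, -0.20 and 0.52 (adjusted p = 0.0566, 0.0222 and 0.00803), not called, and rose from 72 h kd to 240 h kd by 0.61 (adjusted p = 0.000375). Apool, the third gene tested at 48 h and 72 h, was at 0.08 and 0.31 (adjusted p = 0.629 and 0.0155), not called. Apoc3 and Apoa4 had no reads in any library.

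Among lipases and lipid transfer proteins, Pltp, which moves phospholipids between lipoproteins, was called at all 3 times with a peak at 72 h. It held 3.27, 3.23 and 3.31 FPKM at 48 h ctrl, 5.73, 5.04 and 5.23 at 48 h kd, 15.4, 14.7 and 15.03 at 72 h kd, 3.06, 3.17 and 2.87 at 240 h ctrl and 9.65, 9.87 and 9.70 at 240 h kd. The changes were 0.69, 2.17 and 1.65 on the log2 scale (adjusted p = 0.00248, 5.82e-06 and 5.66e-05). Unlike Apoe, it stood further from control at 240 h than at 48 h, by 0.96 (adjusted p = 2.26e-05). Of the 5 tested genes of the list, 1 rose and none fell at 48 h, 1 rose and 1 fell (Angptl4, a lipase inhibitor) at 72 h, and 2 rose at 240 h, Pltp and Lcat, the enzyme that esterifies cholesterol on lipoproteins. Of all genes 1.99%, 8.23% and 4.79% were called higher at the 3 times, and 2.01%, 5.3% and 4.12% lower. The Lcat call (0.67, SE 0.12) was lost without replicate 3 of the 240 h ctrl group (0.54). At 48 h its difference was larger, 0.97 (SE 0.26, adjusted p = 0.0594), and at 72 h it was 0.41 (adjusted p = 0.117), neither called, though at 48 h it was in the fit of all 15 libraries (adjusted p = 0.00537) and by limma voom on read counts recovered from the FPKM (1.01).

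Among lipoprotein receptors and their partners, calls were made at 72 h. Of 11 tested genes at each of the 3 times, 0, 3 and 0 passed, beside 3.99%, 13.5% and 8.91% of all genes, all 3 upward (8.23% of all genes at 72 h), with a median change of -0.14, 0.08 and -0.05. The 3, named after their values were seen, were Lrp3 (1.13), Lrp1 (0.74) and Scarb1 (0.62). Of these, Lrp3 and Scarb1 were also called higher at 72 h kd than at 48 h kd, and Lrp1 was not called against the 240 h ctrl group (0.26). Of the genes for LXR, its partners and cholesterol efflux, 9, 8 and 9 were tested and 2 passed, both upward at 72 h (beside the 8.23% of all genes), the transporter gene Abca7 (1.22) and Npc2 (0.75), which carries cholesterol out of lysosomes. The median change of this list was 0.15, 0.41 and 0.10 at the 3 times, beside 0.01, 0.01 and -0.002 over all genes. It was 0.14 from 48 h kd to 72 h kd and -0.40 from 72 h kd to 240 h kd, beside 0.02 and -0.02. Abca1, an efflux transporter, was at 0.52 at 48 h and -0.39 at 240 h (adjusted p = 0.0122 and 0.0164), not called, and was not tested against control at 72 h. It fell from 48 h kd to 72 h kd by 0.59 (adjusted p = 0.00442), a call lost without replicate 2 of the 48 h kd group or replicate 1 of the 72 h kd group (both -0.57). All 25 cholesterol synthesis genes were tested. At 48 h 2 fell (Idi1 by 0.68 and Sqle by 0.63) with a median of -0.23, at 72 h 3 rose (Mvk, Scap and Tm7sf2) with a median of 0.13, and at 240 h none passed, with a median of -0.17, beside 2.01% of all genes called lower at 48 h and 8.23% called higher at 72 h. Without replicate 2 of the 48 h kd group Sqle was at -0.57, and without replicate 3 of the 72 h kd group Tm7sf2 was at 0.55, neither called. No gene of the TOM and outer membrane assembly list was called among 14 tested at any of the 3 times, as for Tomm40, and the homolog Clptm1l was not called either.

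**Figure D4:**
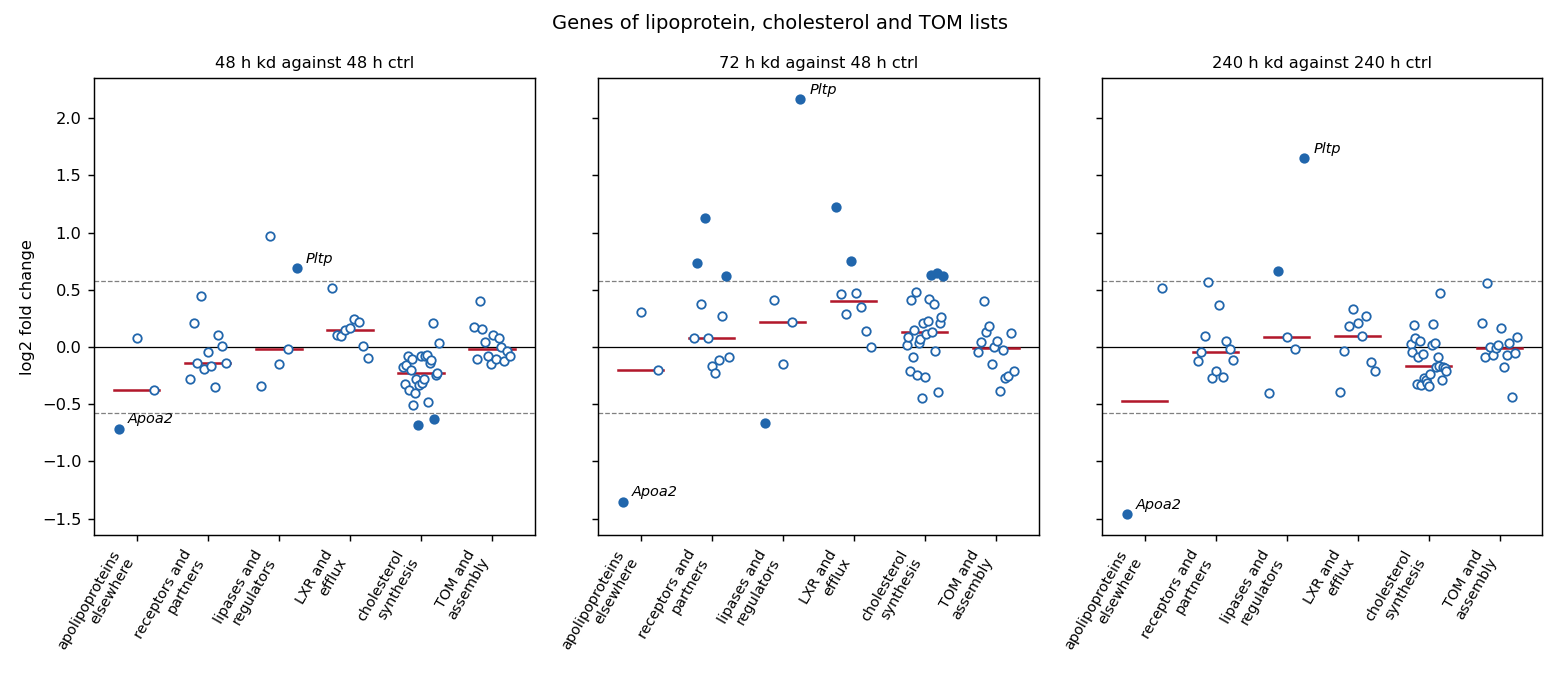
Log2 fold change of each tested gene (points, filled where called) in 6 gene lists for the 3 knockdown comparisons, with the median of each list (red bar) and dashed lines at 0.58 in both directions. Pltp lies above and Apoa2 below the lines at all 3 times, while the list of TOM and assembly genes holds no call.

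Apoe is also a gene of macrophages, astrocytes and visceral endoderm, so markers of these and other cell types were measured beside it. The 10 macrophage markers summed to 1.84 to 2.23 FPKM at 48 h ctrl, 3.65 to 3.86 at 48 h kd, 6.25 to 6.74 at 72 h kd, 2.57 to 3.08 at 240 h ctrl and 3.16 to 3.52 at 240 h kd. Most of this was Cd68, a lysosomal protein gene, which rose by 1.09 at 48 h and 1.99 at 72 h (adjusted p = 0.00626 and 0.000165), while Csf1r, the macrophage growth factor receptor, had a mean of 0.569 FPKM over the 15 libraries and was at 0.08 at both 48 h and 72 h (adjusted p = 0.7 and 0.507). Tyrobp, C1qa and C1qb had 0 reads in all 15 libraries. The 14 endoderm markers summed to 0.440 to 2.25 FPKM in any library, with 0.440 to 0.644 at 72 h kd, where Apoe was highest, and 2.01 to 2.25 at 240 h kd. None had a mean of 0.5 FPKM over the 15 libraries. Of them, Cited1 was tested at 240 h alone and was called higher there. It averaged 0.304 FPKM over the 15 libraries and passed the 0.5 FPKM minimum only through the 240 h kd libraries, where it was high. With 1 library left out it was tested in only 3 of the fits. Its call therefore depends on that filter. The 9 fibroblast markers summed to 0.566 to 1.63 FPKM, and at most 2 were tested in a comparison. Thy1, the only one tested at 48 h, was at -0.81 there. It also lay below control at 240 h and was called at neither time. Col1a1 was called higher at 240 h kd than in its control (1.5) and than at 72 h kd (1.38). It averaged 0.385 FPKM over the 15 libraries and likewise passed the minimum only through the 240 h kd libraries, where it was high. Beside the calls of all these marker lists against control stand 1.99%, 8.23% and 4.79% of all genes called higher at the 3 times and 2.01%, 5.3% and 4.12% called lower.

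Of 10 neural progenitor and glial markers, 3 were tested. Sox1, a neural progenitor transcription factor, rose at all 3 times, by 1.30, 1.73 and 1.55. Nes rose at 240 h only. At 48 h Nes was at -0.43 (adjusted p = 0.0358), opposite to Sox1 and not called, and it was not called at 72 h. From 72 h kd to 240 h kd Nes was called higher. Against control, the astrocyte enzyme gene Aldoc fell at 48 h and 240 h by 0.86 and 1.24. The Aldoc call at 48 h was lost without kd replicate 1 (adjusted p = 0.052), ctrl replicate 2 (0.0639) or ctrl replicate 3 (0.061). At 72 h Aldoc was at 0.50 and not called, though it was without ctrl replicate 3 (0.58) or kd replicate 1 (0.61), and against the 240 h ctrl group (0.73). Between kd groups Aldoc rose from 48 h to 72 h by 1.36 (adjusted p = 0.00291) and fell from 72 h to 240 h, with a log2 change of -1.98 (adjusted p = 7.05e-05). The list summed to 11.5 to 12.7 FPKM in ctrl libraries, 15.7 to 17.8 at 48 h kd, 22.3 to 25.3 at 72 h kd and 21.7 to 22.6 at 240 h kd. Sox1 added the most to these sums, with a mean of 10.6 FPKM over all libraries, against 3.25 for Aldoc and 2.81 for Nes. Sox1 overlaps the gene models Gm25239 and Sox1ot. Of the 10 trophoblast markers, 2, 3 and 2 were tested at the 3 times. Tfap2c fell at 48 h by 0.61 and rose by 0.92 and 0.64 at 72 h and 240 h, and Krt8 rose at 240 h. At 72 h no other tested marker was called, and the median of the list was 0.08. Of the 10 stem cell markers, all tested, 1, 1 and 3 fell at the 3 times (2.01%, 5.3% and 4.12% of all genes) and 1 rose at 72 h (8.23% of all genes). Klf4 fell at all 3 times by 0.87, 0.76 and 1.2, joined at 240 h by Esrrb (-0.78) and Zfp42 (-0.58), and Dppa5a rose at 72 h by 1.04. The Zfp42 call was lost without ctrl replicate 3 (-0.55) or kd replicate 2 (-0.56). The part of these markers in the Apoe levels was not tested, and in bulk RNA a change in the share of cells of a type and a change in RNA per cell cannot be told apart.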

How the data were processed

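The authors aligned single-end reads to mm10 with STAR 2.7.0c, summed them over genes in R and used DESeq2 1.30.0 for their tests. The deposited values are FPKM, 1 per gene and library. The gene annotation and strand setting are not given in the sources used here. Library totals were inferred from these values, by taking the smallest product of FPKM and gene span above 0 in a library as 1 read. In that unit 100% of values above 0 came out as whole reads (tolerance 0.001). Summed over genes these reads exceeded the inferred totals by 7.38% to 8.34%, so, if the totals hold, some were counted for more than 1 gene. Gene identifiers, strand and exonic length came from GENCODE M21 (53297 of 55228 genes matched), promoters from RefSeq.

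Groups came from the sample labels, which do not say whether replicates are separate cultures, so p-values measure the spread between these libraries. Counting error is set by the reads given, which carry no molecular identifiers. limma 3.58.1 in R 4.3.3 (lmFit, eBayes with a trend, two-sided) was applied to log2(FPKM + 0.1) for genes averaging 0.5 FPKM or more over the compared libraries. This scale understates changes of low genes. Benjamini-Hochberg adjustment ran over all tested genes, and calls needed both an adjusted p under 0.05 and an absolute log2 change above 0.58. With 3 libraries a group, exact permutation cannot reach below 0.1 and was not used.

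The members and gene lists were chosen with earlier results of these data known. From the receptor list 2 genes are not reported here, and its counts and medians are without them. Named were the members, Smarcb1, genes within 250 kb of Apoe that were called at any knockdown time or, if protein-coding, had a mean of at least 5 FPKM, list genes called at 2 or more times (at most 4 a list), and the 5 genes most correlated with Apoe among those with at least 50 reads on average. List and marker genes called at 1 time, Nectin2, Gm20512, Relb, Clu, Apool, Abca1, Csf1r and Thy1 were named after their values were seen. Alternatives were pseudocounts of 1 and 0.01, no minimum, a minimum of 2 FPKM, TPM, median centring, quantile normalization, a replicate block, no trend, 1 fit over all 15 libraries, each library left out, limma voom on recovered reads (mean of at least 10), the 240 h ctrl group as control for 72 h, and levels per exonic length. Same-numbered replicates did not deviate together (correlations of -0.158 to 0.142), so the numbers were not taken to pair libraries. Tables were handled with Python 3.11.15, pandas 2.3.3 and numpy 2.4.6, and plots drawn with matplotlib 3.10.9.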

Additional observations from a re-analysis of the deposited data

Results flagged for a closer look

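By the interaction term of limma over 12 libraries, Clptm1 was the 1 member whose tested responses to knockdown at 240 h and 48 h were unequal. Apoe and Apoc1 were left out, since this term uses the differences by which they were chosen. The effect on Clptm1 was larger at 240 h (0.42, SE 0.070, adjusted p = 0.00339), below the 0.58 needed for a call. In the neighbourhood the difference was -0.57 for Bcam (adjusted p = 0.0096), 0.45 for Nectin2 (0.000884), 0.58 for Bcl3 (7.56e-05) and 0.70 for Gm16175 (4.15e-05), which overlaps Bcl3. Bcam and Bcl3 lie at the size threshold, and leaving out single libraries moved Bcam to between -0.66 and -0.51 and Bcl3 to between 0.54 and 0.60, on either side of it. Among list genes it was -0.75 for Apoa2 (0.0214), 0.96 for Pltp (2.26e-05), -0.78 for Cd68 (0.0146), 0.89 for Clu (0.00168), -0.91 for Abca1 (0.000207), 1.26 for Tfap2c (3.97e-06) and -0.33 for Klf4 (0.0104). List genes called at 1 time gave 1.58 for Krt8 (0.000271), 1.07 for Nes (0.000262), -0.62 for Esrrb (5.67e-05), -0.25 for Zfp42 (0.0104), 0.40 for Idi1 (0.0305) and 0.35 for Sqle (0.0119). The Apoa2 difference lost its call without replicate 3 of the 48 h kd group (-0.69, adjusted p = 0.051) or replicate 2 of the 240 h kd group (-0.74, adjusted p = 0.0501). With 3 libraries a group, Dixon's test for a single outlying library was not applied.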

How the results depend on the processing

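The log2 differences of Apoe, Apoc1, Tomm40 and Clptm1 were recomputed under the alternatives, except that Apoc1 averaged under 2 FPKM at 240 h and between the ctrl groups and had no value there with that minimum, and Tomm40 and Clptm1 were called in no comparison under any of them. With a pseudocount of 1 the differences of Apoc1 shrank to 0.87 at 48 h, 1.70 at 72 h and 0.59 at 240 h. Apoe at 72 h was 2.41 with quantile normalization and 2.38 against the 240 h ctrl group. Per exonic length the median ratio of Apoe to Apoc1 was 30.7 in place of 91.1. Small differences, none of them called, changed sign. Tomm40 at 72 h was 0.0027 as TPM and 0.018 with quantile normalization, Apoe between the ctrl groups 0.058 and 0.065, and Zfp296 at 72 h 9.01e-05 against 240 h ctrl.

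With each library left out in turn, Apoe lay between 1.27 and 1.45 at 48 h, 2.31 and 2.36 at 72 h and 0.84 and 0.93 at 240 h, and Apoc1 between 1.11 and 1.33, 2.10 and 2.32, and 0.77 and 0.94. Tomm40 lay between -0.054 and 0.0054 at 72 h, -0.011 and 0.067 at 240 h, -0.012 and 0.066 between the ctrl groups and -0.011 and 0.087 from 48 h kd to 72 h kd, Clptm1 between -0.033 and 0.054 between the ctrl groups, and Trappc6a between -0.012 and 0.11 at 48 h and -0.16 and 0.0038 at 240 h. The interaction of Apoe lay between -0.57 and -0.39.

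With the replicate number as a block Tomm40 and Clptm1 were again called in no comparison, and the differences of Apoe were 1.35, 2.33 and 0.89. Calls over all genes went from 456 to 285 at 48 h and from 54 to 0 between the ctrl groups. There limma with the block left 3384 genes at an unadjusted p under 0.05, and voom made 220 calls.

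The number of genes called moved by over 1.5 times as follows. A pseudocount of 1 gave 208, 745 and 541 at the 3 times (456, 1548 and 1016 in the reported fit), 27 between the ctrl groups (54), 365 from 48 h kd to 72 h kd (857), 882 from 72 h kd to 240 h kd (1803) and 333 for the interaction (664). A minimum of 2 FPKM gave 208, 768, 453, 32, 407, 888 and 324 in the same order. No minimum gave 2500 at 72 h, 1768 at 240 h, 2841 from 72 h kd to 240 h kd and 1051 for the interaction. Voom gave 1485, 3642, 2998, 220, 2101, 4201 and 1708. Between the ctrl groups TPM gave 168, the fit of all libraries 100, no trend 31, and leaving out 1 library 2 to 10. TPM moved the share of calls that were higher from 74.1% to 91.1% between the ctrl groups, from 55.9% to 67.9% from 48 h kd to 72 h kd and from 40.9% to 53.9% from 72 h kd to 240 h kd. Among list genes named for 1 time, a pseudocount of 1 ended the calls of Idi1, Sqle, Angptl4, Lrp1, Mvk, Scap, Scarb1, Tm7sf2, Lcat, Nes and Zfp42, and quantile normalization those of Scarb1 and Zfp42. A pseudocount of 1 also ended those of Pltp (0.57) and Tfap2c at 48 h and of Mark4 and Trappc6a at 72 h, of Mark4 and Trappc6a from 48 h kd to 72 h kd, of Clu and Col1a1 from 72 h kd to 240 h kd, of Abca1, Lrp3 and Scarb1 from 48 h kd to 72 h kd, and the interaction calls of Abca1, Apoa2, Cd68, Clu and Esrrb. Mark4 at 72 h was also not called with quantile normalization (0.55), nor Trappc6a from 48 h kd to 72 h kd with that (0.57) or median centring (0.56), while Nectin2 there was called as TPM (0.63). Relb at 72 h was called with a pseudocount of 0.01 (0.58), as TPM (0.60) and by voom (0.59). The cause of these shifts was not tested. Depth limits Apoc2 and Apoc4, for which only the fit without a minimum gave a value.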
